A study of Mus musculus with 6 samples.

Results

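The BCL2 family was examined in germinal centre B cells of the mouse spleen through 10 genes chosen by their symbol: Bcl2, Bcl2l1, Mcl1, Bcl2a1a, Bcl2a1b, Bcl2a1d, Bcl2l11, Bbc3, Pmaip1 and Bax. All 10 had a row among the 23412 rows of the deposited count table, and all 10 passed the filter on low counts. The cells came from DAF-TM mice, which carried 1 Cg1-cre allele and a floxed DAF-TM cassette at Rosa26 on both chromosomes, and from control mice labelled Cg1-cre(+/-), which carried the Cre allele without the cassette. The treatment notes write the control genotype as DAF-Tg(+/+) and the table's own header writes the Cre allele as (+/fl), so the labels differ in how they spell the locus. Cg1-cre acts in B cells that transcribe the IgG1 constant region, and DAF is decay accelerating factor, a membrane inhibitor of complement whose mouse gene is Cd55. All mice received sheep red blood cells in the peritoneum, and B220+ GL7+ Fas+ cells were sorted on day 10. The labels give neither the age of the mice nor whether a library held 1 mouse or several, so p-values measure the spread between libraries.

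BCL2 family proteins decide whether the outer membrane of mitochondria is opened during apoptosis. BCL2, BCL-XL (from Bcl2l1), MCL1 and A1 (from the Bcl2a1 genes) hold the pore former BAX in check, and BH3-only proteins such as BIM (Bcl2l11), PUMA (Bbc3) and NOXA (Pmaip1) relieve that restraint. Germinal centre B cells are known for little BCL2 and for reliance on MCL1, and many of them die by apoptosis unless they are selected.

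Each group had 3 replicates in the labels, but DAF-TM replicates 2 and 3 differed in 0 of 23412 rows. The gap between them was thus below sampling noise, and they entered once, as DAF-TM library 2, which left 2 DAF-TM and 3 Cg1-cre libraries. Any other 2 columns were unlike in 21585 rows or more. Totals ran from 10684753 to 11280400 counts in DAF-TM libraries and from 7257339 to 12783965 in Cg1-cre libraries. Cd55 stood at 713 and 726 CPM (counts scaled to library size with TMM factors) in DAF-TM libraries, against 28.7, 34.4 and 23.5 in Cg1-cre libraries (edgeR adjusted p = 1.99e-110). The 13 germinal centre markers summed to 11343 and 10723 CPM in DAF-TM libraries and to 11722, 13794 and 11511 in Cg1-cre libraries, and 0 of them rose or fell, with a median log2 fold change of -0.22. DAF-TM library 2 and Cg1-cre library 1 were high only in Xist, at 720 and 759 CPM. Cg1-cre libraries 2 and 3 were high only in Y-linked transcripts, at 708 and 478 CPM over 4 genes. Sex was thus not balanced between the groups, and its part in the differences was not tested. DAF-TM library 1 held both Xist, at 297 CPM, and Y-linked transcripts, at 289 CPM over the same 4 genes. Without that library edgeR called 14 genes, of which 9 were among the 77 called with all libraries, and the values of the 10 genes and of the called markers without it are given beside the results.

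None of the 10 genes changed at an adjusted p under 0.05. Among all genes, 77 of the 18767 tested were called, 0.41% (0.373% higher and 0.0373% lower), in edgeR's quasi-likelihood test with Benjamini-Hochberg adjustment, and limma-voom also called 0 of the 10. DESeq2 called none of the 9 to which it gave an adjusted p, Bcl2a1a having none. At an unadjusted p under 0.05 there were 2 of the 10, Bcl2 with more RNA and Bcl2a1d with less, against 5.74% of all genes tested (3.68% higher and 2.06% lower). DESeq2 and limma-voom gave the same 2 names at that level. Groups did not overlap for 4 of the 10, with Bcl2 and Bcl2a1a higher and Bcl2a1d and Bax lower in DAF-TM cells, against 20.3% of all genes tested (11.3% higher and 9.02% lower). Log2 fold changes were below 0 for 8 of the 10, against 46.1% of all genes. Medians were -0.11 for the 10 and 0.03 for all genes. The set of all genes was not matched to the 10 for level. Of the 13 germinal centre markers 12 were below 0 as well, with a median of -0.22.

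**Figure D1:**
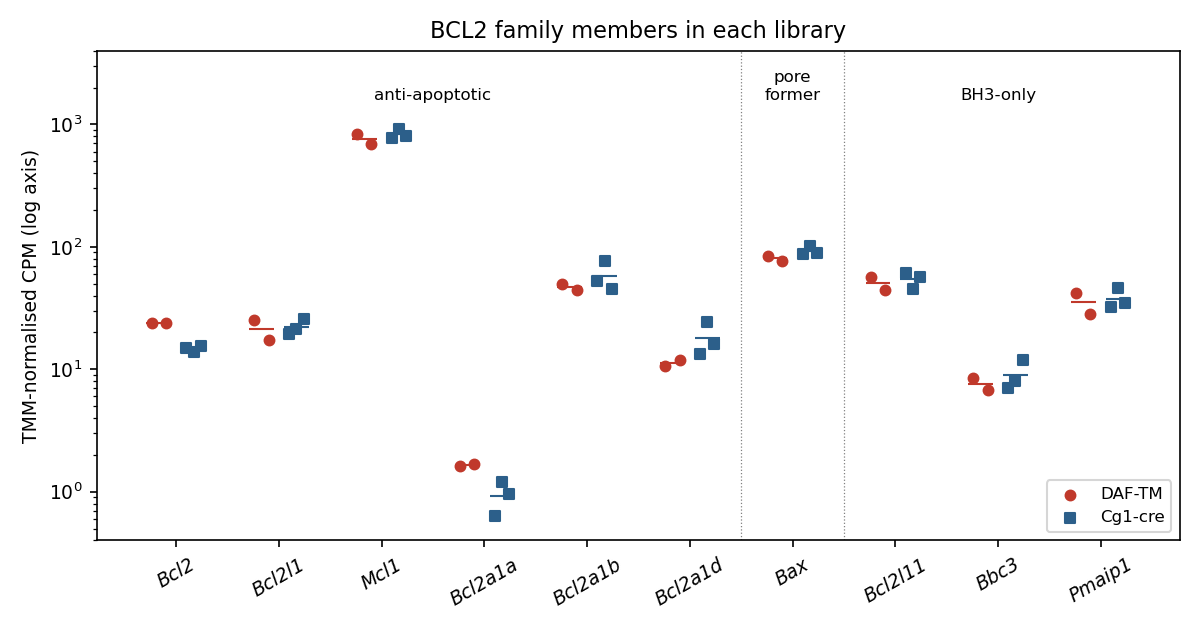
TMM-normalised CPM of the 10 genes (log axis) in 2 DAF-TM libraries (circles) and 3 Cg1-cre libraries (squares), with the group mean as a line. Mcl1 is the highest and Bcl2a1a the lowest of the 10, and the DAF-TM points of Bcl2, at 23.7 and 23.9, sit above all 3 Cg1-cre points.

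Bcl2, the founding anti-apoptotic member, lies on the minus strand of chromosome 1 (106538176 to 106714290, GRCm38.p6). Its level was 23.7 and 23.9 CPM in DAF-TM libraries, against 14.9, 13.9 and 15.4 CPM in Cg1-cre libraries. Both DAF-TM libraries stood above all controls. Values within each group lay closer together than counting error alone would be expected to leave them at the raw counts given below. Their narrow spread is thus no measure of precision, for which the fitted SE is the guide. The fitted fold was 1.62 (95% interval 1.21 to 2.15; log2 fold change 0.69, SE 0.21), with an unadjusted p of 0.00102 and an edgeR adjusted p of 0.164. By unadjusted p it ranked 117 of 18767 genes, and the difference did not pass after adjustment over the whole table. The raw counts behind it were 263 and 283 in DAF-TM libraries and 141, 164 and 113 in Cg1-cre libraries. In bulk RNA of sorted cells, more Bcl2 per cell and more cells of a type that is rich in Bcl2 cannot be told apart.

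Naive B cells and T cells are known to hold more BCL2 than germinal centre B cells, and some of their markers rose in the DAF-TM group. Of 11 markers of naive or follicular B cells 5 rose and 0 fell, and 1 of the 5 was Cd55 itself. Fcer2a, Il4ra, Cxcr5 and Bach2 from this list had log2 values between -0.18 and -0.01, and none of them passed. The others included Ccr7, the chemokine receptor of the T cell zone (3.46-fold, edgeR adjusted p = 1.47e-11), Klf2, a factor of quiescent lymphocytes (2.62-fold, 4.41e-10), and S1pr1, the exit receptor (2.37-fold, 8.51e-09). Ccr7 stood at 30.8 and 23.7 CPM in DAF-TM libraries, against 7.52, 7.47 and 8.73 in Cg1-cre libraries. The 10 markers other than Cd55 summed to 1481 and 1211 CPM in DAF-TM libraries and to 1219, 1323 and 1292 in Cg1-cre libraries, and these sums overlapped. Of 15 T cell markers 2 rose and 0 fell, Cd3d, a chain of the receptor complex (2.87-fold, adjusted p = 0.0293), and the factor Tcf7 (2.58-fold, 0.013). Without Lck, which took most of the list's reads in every library, the other 14 summed to 91.0 and 102 CPM in DAF-TM libraries and to 46.5, 48.7 and 60.02 in Cg1-cre libraries. No marker in either list was at 0 in any library. Without DAF-TM library 1 edgeR called 3 of the 11 naive or follicular markers, Cd55 and Ccr7 (2.99-fold, adjusted p = 0.00319) among them, while Klf2 (1.88-fold, 0.246) and S1pr1 (1.88-fold, 0.195) did not pass. The T cell calls rested on all libraries, since 0 of 15 passed without DAF-TM library 1, Cg1-cre library 1 or Cg1-cre library 2, and 1, Tcf7, passed without DAF-TM library 2 or Cg1-cre library 3. The fold ran from 2.48 to 3.21 for Cd3d and from 2.19 to 3.01 for Tcf7 over these fits. The part of these cells in the Bcl2 value was not tested.

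**Figure D2:**
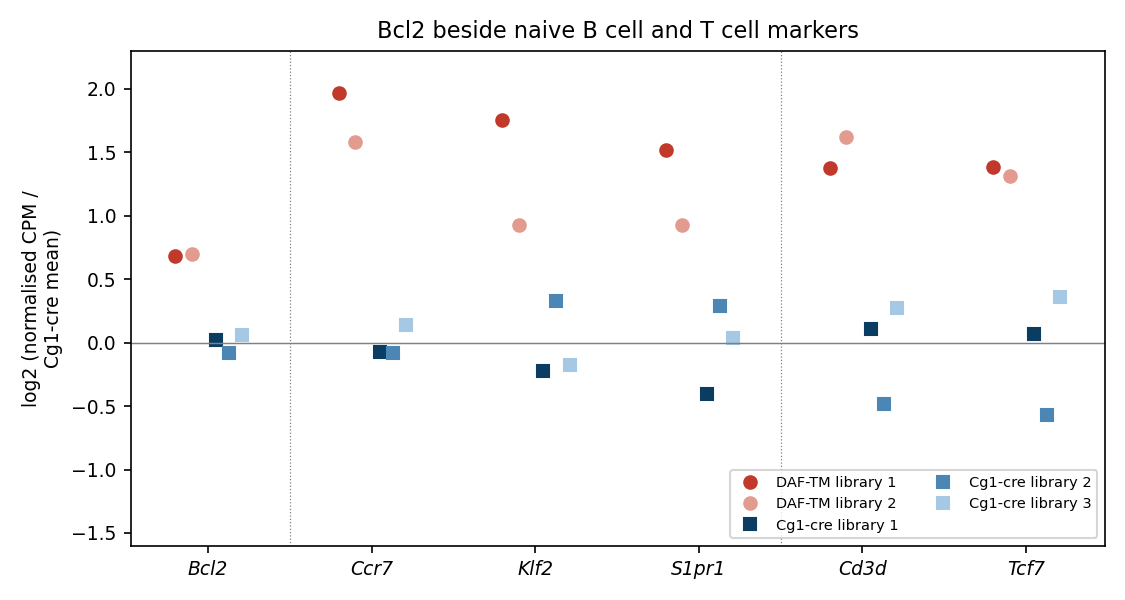
Log2 ratio of normalised CPM to the Cg1-cre mean for Bcl2, 3 naive B cell markers and 2 T cell markers in each library. The markers shown are among those called higher, and most markers of these lists were not called. In DAF-TM libraries Bcl2 lies at 0.68 and 0.70, and the 5 markers lie between 0.92 and 1.96.

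Bcl2l1, on the minus strand of chromosome 2 (152758732 to 152833803), encodes BCL-XL and by alternative splicing a shorter pro-apoptotic form that gene counts do not separate. It stood at 25.1 and 17.4 CPM in DAF-TM libraries, against 19.5, 21.2 and 25.5 CPM in Cg1-cre libraries. The groups overlapped, and the fold was 0.96 (95% interval 0.73 to 1.27, edgeR adjusted p = 0.985). Mcl1, on the plus strand of chromosome 3 (95656944 to 95663179), had the most counts of the 10 genes. Its level was 836 and 697 CPM in DAF-TM libraries, against 771, 913 and 809 CPM in Cg1-cre libraries. The groups overlapped here too, and the fold was 0.92 (95% interval 0.74 to 1.16, edgeR adjusted p = 0.959).

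The Bcl2a1 genes encode A1, a short-lived anti-apoptotic protein induced by NF-kB in lymphocytes, and the mouse has several near-identical copies on chromosome 9. Their coding sequences are shown because the counts of the copies rest on few differing bases. Bcl2a1a (plus strand, 88956920 to 88962416), Bcl2a1b (plus strand, 89199273 to 89207838) and Bcl2a1d (minus strand, 88723288 to 88731850) have coding sequences of 516 bases each in GENCODE M21, which differ at 12 positions in all. Identity was 97.9% between Bcl2a1a and Bcl2a1b, 98.6% between Bcl2a1a and Bcl2a1d and 98.8% between Bcl2a1b and Bcl2a1d. The first 120 coding bases, from the start codon, hold 7 of the 12 positions, which are in capitals.
Bcl2a1a: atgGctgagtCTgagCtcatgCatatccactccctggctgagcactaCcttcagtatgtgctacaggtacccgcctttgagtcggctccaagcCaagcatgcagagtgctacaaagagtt
Bcl2a1b: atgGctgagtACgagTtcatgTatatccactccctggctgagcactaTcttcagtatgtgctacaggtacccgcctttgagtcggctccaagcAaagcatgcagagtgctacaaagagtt
Bcl2a1d: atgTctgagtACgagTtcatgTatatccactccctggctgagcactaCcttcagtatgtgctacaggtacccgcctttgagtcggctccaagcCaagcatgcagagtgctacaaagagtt

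The reads were 100 nt long, so the stretches of that length in each GENCODE transcript were searched for in all other transcripts, on both strands. Of 720 such windows in Bcl2a1a 407 occurred in no other gene, of 718 in Bcl2a1b 310, and of 764 in Bcl2a1d 346. The other windows were shared among the copies or with the gene model Gm29094, and the sources used here do not say how shared reads were counted. In comparison, all windows of Mcl1, Bcl2l1, Bcl2l11, Bbc3 and Pmaip1 were unique, and 95.6% of those of Bcl2 and 94.7% of those of Bax.

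The copies differed widely in counts although their unique sequence was of like extent. Bcl2a1b had 548 and 530 counts in DAF-TM libraries, against 497, 905 and 329 in Cg1-cre libraries. Bcl2a1d had 117 and 141 counts in DAF-TM libraries, against 125, 285 and 119 in Cg1-cre libraries. Bcl2a1a had 18 and 20 counts in DAF-TM libraries, against 6, 14 and 7 in Cg1-cre libraries. Bcl2a1b thus held most of the reads given to the copies in every library, 79.8% and 76.0% in DAF-TM libraries and 78.5%, 75.0% and 72.3% in Cg1-cre libraries. Per 100 unique windows, Bcl2a1b had 177 and 171 counts in DAF-TM libraries and 160, 292 and 106 in Cg1-cre libraries, while Bcl2a1a had 4.42 and 4.91 in DAF-TM libraries and 1.47, 3.44 and 1.72 in Cg1-cre libraries. Bcl2a1c, a further copy, had 4 and 6 counts in DAF-TM libraries and 5, 3 and 0 in Cg1-cre libraries. It was below the filter and was not tested alone.

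**Figure D3:**
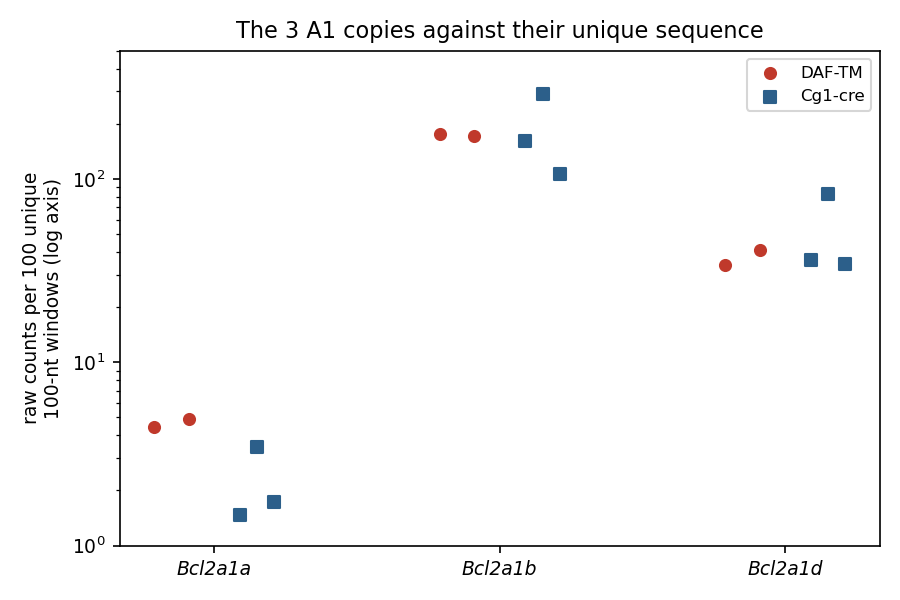
Raw counts of Bcl2a1a, Bcl2a1b and Bcl2a1d per 100 windows of 100 nt that occur in no other gene (log axis), by library, not scaled for depth. Bcl2a1b lies above 100 in all 5 libraries and Bcl2a1a below 5, with Bcl2a1d between them.

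The sequence before the annotated start was nearly the same in the copies, and it is shown for the 3 genes because their counts differ. Aligned with Bcl2a1b, the overlapping part of the upstream bases had 99.5% identity in Bcl2a1a and 96.1% in Bcl2a1d. The 250 bases upstream of each RefSeq start (GRCm38.p6) are given on the gene's own strand, with capitals for bases of Bcl2a1a and Bcl2a1d that differ from Bcl2a1b in the aligned part. The alignment of Bcl2a1d with Bcl2a1b also had 6 gap bases, which carry no capitals.
Bcl2a1a, chr9:88956670-88956919, plus strand: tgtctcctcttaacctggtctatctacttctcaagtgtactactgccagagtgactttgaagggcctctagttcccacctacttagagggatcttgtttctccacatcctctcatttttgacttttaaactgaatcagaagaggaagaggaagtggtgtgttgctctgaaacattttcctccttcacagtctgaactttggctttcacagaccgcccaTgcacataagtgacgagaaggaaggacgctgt
Bcl2a1b, chr9:89199023-89199272, plus strand: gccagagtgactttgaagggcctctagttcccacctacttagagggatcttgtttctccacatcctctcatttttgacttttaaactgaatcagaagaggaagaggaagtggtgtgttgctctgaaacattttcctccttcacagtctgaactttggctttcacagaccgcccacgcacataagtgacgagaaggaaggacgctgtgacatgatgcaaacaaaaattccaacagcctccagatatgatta
Bcl2a1d, chr9:88731851-88732100, minus strand: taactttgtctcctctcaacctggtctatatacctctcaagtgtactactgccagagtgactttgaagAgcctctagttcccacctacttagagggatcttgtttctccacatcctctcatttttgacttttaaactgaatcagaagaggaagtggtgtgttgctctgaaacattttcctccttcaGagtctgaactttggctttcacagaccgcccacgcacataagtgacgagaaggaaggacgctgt

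Bcl2a1d stood at 10.6 and 11.9 CPM in DAF-TM libraries, against 13.2, 24.2 and 16.2 CPM in Cg1-cre libraries. Both DAF-TM libraries lay below all controls, of which library 2 was the highest. The log2 fold change was -0.68 (SE 0.23; fold 0.63, 95% interval 0.46 to 0.86), with an unadjusted p of 0.00373 and an edgeR adjusted p of 0.374. Without Cg1-cre library 2 the log2 value was -0.39 with an unadjusted p of 0.134, so the size of this difference rested on that library. Without DAF-TM library 1 it was -0.60 with an unadjusted p of 0.0525. Bcl2a1b stood at 49.4 and 44.8 CPM in DAF-TM libraries, against 52.6, 76.9 and 44.9 CPM in Cg1-cre libraries, and the groups overlapped (log2 fold change -0.31, SE 0.17, edgeR adjusted p = 0.91). Without Cg1-cre library 2 it stood at -0.05. Bcl2a1a stood at 1.62 and 1.69 CPM in DAF-TM libraries, against 0.64, 1.19 and 0.95 CPM in Cg1-cre libraries. Of the 3 copies tested it alone had a log2 value above 0, at very low counts (log2 fold change 0.82, SE 0.60, edgeR adjusted p = 0.945).

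To set aside how reads were divided among the 4 copies, they were summed and tested as 1 row in the same fit. The sum does not settle how reads shared with Gm29094 were counted, or whether shared reads were dropped. The sum was 62.0 and 58.9 CPM in DAF-TM libraries, against 67.0, 103 and 62.1 CPM in Cg1-cre libraries. The DAF-TM values lay just below the lowest control, with a log2 fold change of -0.36 (SE 0.17), an unadjusted p of 0.036 and an edgeR adjusted p of 0.827. Without Cg1-cre library 2 it was -0.10, and without DAF-TM library 1 it was -0.40 with an unadjusted p of 0.0875. A1 is also abundant in neutrophils, and of 13 neutrophil markers tested 1 fell, Chil3 (listed as Chi3l3), at 2.98 ± 1.53 CPM in DAF-TM cells (SD, n = 2) and 16.5 ± 10.1 in Cg1-cre cells (SD, n = 3; edgeR adjusted p = 0.000924), and 0 rose. The list was split, with 5 of the 13 log2 values above 0 and 8 below. At an unadjusted edgeR p under 0.05, 2 were higher, Csf3r (log2 0.80) and Cxcr2 (0.85). At that level 2 were lower, Camp (-3.20) and Chil3 (-2.44). The list summed to 39.3 and 97.9 CPM in DAF-TM libraries and to 109, 99.8 and 307 in Cg1-cre libraries. No neutrophil marker was at 0 in any library. Chil3 did not pass without either DAF-TM library (edgeR adjusted p = 0.537 without library 1 and 0.565 without library 2). Of 15 macrophage and monocyte markers, whose cells can also express A1, 4 rose and 0 fell, with sums of 185 and 126 CPM in DAF-TM libraries and of 161, 102 and 132 in Cg1-cre libraries, but 0 passed without DAF-TM library 1. Of the 15 macrophage and monocyte markers 13 had log2 values above 0 and 2 below. Lyz2, 1 of those 2, stood at 57.4 and 32.6 CPM in DAF-TM libraries, against 95.7, 45.1 and 71.1 in Cg1-cre libraries. It had the highest level of the list in every library, so the sums lean on it. The part of neutrophils, macrophages and monocytes in the A1 values was not tested.

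Bax, on the minus strand of chromosome 7 (45461695 to 45466903), encodes the pore former BAX. Its level was 84.9 and 76.7 CPM in DAF-TM libraries, against 87.3, 102 and 88.5 CPM in Cg1-cre libraries. The groups did not overlap, but the lower DAF-TM level was within the error of the fit (log2 fold change -0.20, SE 0.17; fold 0.87, 95% interval 0.70 to 1.09, edgeR adjusted p = 0.949). Bak1, which encodes the related pore former BAK, stood at 4.35 ± 0.54 CPM in DAF-TM cells (SD, n = 2) and 4.55 ± 0.35 in Cg1-cre cells (SD, n = 3). Bok, a further relative of BAX and BAK, stood at 3.22 ± 0.47 CPM in DAF-TM cells and 3.25 ± 1.14 in Cg1-cre cells. The groups overlapped for both genes (edgeR adjusted p = 0.988 for Bak1 and 0.9996 for Bok).

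Among the BH3-only genes Bcl2l11, on the plus strand of chromosome 2 (128126038 to 128162547), encodes BIM, the main trigger of death in unselected lymphocytes. It stood at 56.5 and 44.1 CPM in DAF-TM libraries, against 61.2, 44.9 and 57.0 CPM in Cg1-cre libraries. The groups overlapped, with a fold of 0.93 (95% interval 0.73 to 1.17, edgeR adjusted p = 0.965). Bbc3, on the plus strand of chromosome 7 (16308398 to 16318334), encodes PUMA, a target of p53. It stood at 8.48 and 6.77 CPM in DAF-TM libraries, against 6.99, 7.98 and 11.9 CPM in Cg1-cre libraries, and the groups overlapped (fold 0.86, 95% interval 0.57 to 1.295, edgeR adjusted p = 0.958). Pmaip1, on chromosome 18, encodes NOXA, which binds MCL1 above all. It stood at 41.8 and 28.5 CPM in DAF-TM libraries, against 31.99, 45.9 and 34.9 CPM in Cg1-cre libraries, and again the groups overlapped (fold 0.93, 95% interval 0.73 to 1.19, edgeR adjusted p = 0.968).

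Bid, a BH3-only gene outside the 10 whose product is cut by caspase 8, stood at 280 and 260 CPM in DAF-TM libraries, against 323, 366 and 311 CPM in Cg1-cre libraries. Both DAF-TM libraries lay below the controls, with a log2 fold change of -0.30 (SE 0.17, unadjusted p = 0.0685, edgeR adjusted p = 0.902). Of the other BH3-only genes, Bad, which growth factor signals hold inactive, had a log2 value of -0.18 ± 0.18 (SE), Bmf -0.24 ± 0.21, Bik -0.13 ± 0.56 and Hrk 0.47 ± 0.43. The anti-apoptotic Bcl2l2 (BCL-W) had 0.19 ± 0.40, Bcl2l10 0.28 ± 0.85 and Bcl2l12 0.01 ± 0.26. The more distant relatives ranged from -0.35 for Bnip3, a gene of mitophagy, to 0.29 for Bcl2l15. Between them lay Bnip2 at -0.26, Bcl2l13 at -0.20, Bcl2l14 at -0.17, Becn1, a gene of autophagy, at -0.12, Bnip1 at -0.09 and Bnip3l, another gene of mitophagy, at 0.16. Of these 18 tested family genes and relatives edgeR called 0, and none had an unadjusted p under 0.05. Their median log2 fold change was -0.11, close to that of the 10.

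**Figure D4:**
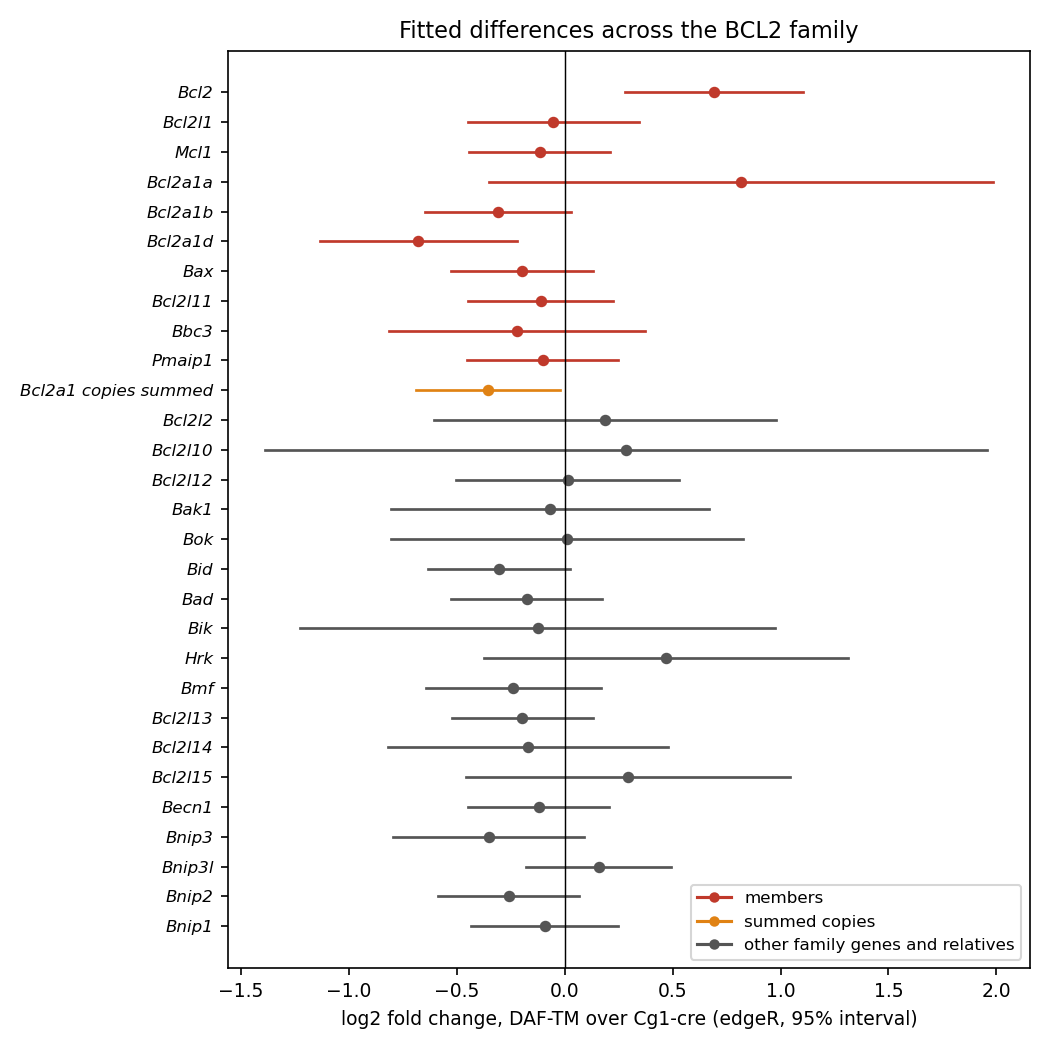
Log2 fold change of DAF-TM over Cg1-cre with its 95% interval for the 10 genes, the summed A1 copies and 18 further family genes and relatives. Only the intervals of Bcl2 (0.28 to 1.11), Bcl2a1d (-1.14 to -0.22) and the summed copies (-0.69 to -0.02) leave out 0, before any adjustment over genes.

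The order of the family's levels was compared per kilobase of annotated exon, a scale on which genes of different length can be set side by side. Mcl1 was highest, at 224 ± 28.8 CPM per kilobase in DAF-TM cells (SD, n = 2) and 243 ± 21.5 in Cg1-cre cells (SD, n = 3). Bcl2a1b and Bax followed among the 10, at 57.7 ± 3.98 and 51.3 ± 3.66 CPM per kilobase in DAF-TM cells and at 71.2 ± 20.4 and 58.7 ± 5.14 in Cg1-cre cells, and these neighbours overlapped in the Cg1-cre libraries. Bcl2a1d and Pmaip1 came next, at 13.02 ± 1.13 and 12.9 ± 3.43 CPM per kilobase in DAF-TM cells and at 20.7 ± 6.57 and 13.8 ± 2.68 in Cg1-cre cells, and they overlapped in both groups. Bcl2l11 stood at 6.26 ± 1.09 CPM per kilobase in DAF-TM cells and 6.77 ± 1.05 in Cg1-cre cells. Bcl2l1 and Bbc3 overlapped with each other in Cg1-cre cells, at 4.81 ± 0.68 and 4.21 ± 1.21 CPM per kilobase there. Bcl2 was near the low end, at 2.60 ± 0.02 CPM per kilobase in DAF-TM cells and 1.61 ± 0.08 in Cg1-cre cells. It lay above Bcl2a1a, at 2.02 ± 0.06 in DAF-TM cells and 1.13 ± 0.34 in Cg1-cre cells. The SDs of Bcl2, and that of Bcl2a1a in DAF-TM cells, were below counting error and do not measure precision. These levels use the union of all annotated exons, 9157 bases for Bcl2 and 8029 for Bcl2l11, so genes with rarely used long exons come out low. Bcl2a1 levels also carry the doubt over shared reads.

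Within a library the ratio of Bcl2 counts to those of its BH3-only opponent Bcl2l11 was 0.42 and 0.54 in DAF-TM libraries, against 0.24, 0.31 and 0.27 in Cg1-cre libraries. The ratio of Bcl2 to Bax counts was 0.28 and 0.31 in DAF-TM libraries, against 0.17, 0.14 and 0.17 in Cg1-cre libraries. Both ratios were higher in each DAF-TM library than in any control, and they share the Bcl2 counts. The ratio of Mcl1 to Bcl2l11 counts overlapped, at 14.8 and 15.8 in DAF-TM libraries and 12.6, 20.3 and 14.2 in Cg1-cre libraries. The same held for Mcl1 to Pmaip1, at 20.02 and 24.45 in DAF-TM libraries and 24.1, 19.9 and 23.2 in Cg1-cre libraries. These ratios are a description and were not tested.

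Downstream of BAX and BAK, cytochrome c and APAF1 activate caspase 9 and then the executioner caspases. Of 13 genes of the apoptosome, caspases and released factors 0 rose and 0 fell. Their median log2 fold change was -0.15, against 0.03 for all genes, which were not matched for level. In this list 1 gene had an unadjusted p under 0.05. That gene was Casp2, an initiator caspase, at 166 ± 2.41 CPM in DAF-TM cells (SD, n = 2) and 210 ± 18.0 in Cg1-cre cells (SD, n = 3; unadjusted p = 0.0402, edgeR adjusted p = 0.846). Apaf1 had a log2 value of -0.24 ± 0.17 (SE) and Casp9 of -0.19 ± 0.17. Of 8 caspase inhibitors and their regulators 0 rose and 0 fell, with a median of 0.00. Xaf1, an interferon-induced antagonist of XIAP, stood at 10.8 ± 1.42 CPM in DAF-TM cells (SD, n = 2) and 6.95 ± 1.04 in Cg1-cre cells (SD, n = 3; unadjusted p = 0.0329, edgeR adjusted p = 0.829), while Naip2 had 0.46 ± 0.38 (SE) and Birc5, survivin, -0.17 ± 0.17.

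Of 11 death receptor genes 0 rose and 0 fell, with a median log2 fold change of -0.02, and 1 reached an unadjusted p under 0.05. Fasl, the ligand of Fas that T and natural killer cells make, stood at 3.34 and 1.78 CPM in DAF-TM libraries, against 0.85, 0.85 and 0.68 CPM in Cg1-cre libraries (unadjusted p = 0.00272, edgeR adjusted p = 0.311). Of 12 natural killer cell markers 8 rose and 0 fell, and no marker was at 0. Their summed levels were 185 and 98.0 CPM in DAF-TM libraries and 79.6, 54.9 and 92.6 in Cg1-cre libraries. Log2 values were above 0 for 11 of the 12 and below 0 for Tbx21 (-0.38), on which the sums lean. Tbx21 stood at 36.9 and 8.80 CPM in DAF-TM libraries, against 42.3, 11.5 and 35.6 in Cg1-cre libraries. Without DAF-TM library 1, 0 of the 12 passed, and Fasl had an unadjusted p of 0.115. Their part in the Fasl value was not tested. Fas, the receptor used in the sort, had a log2 value of -0.27 ± 0.17 (SE), and Faim, an inhibitor of Fas-driven death, -0.23 ± 0.17.

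p53 drives Bbc3, Pmaip1 and Bax after DNA damage. Of 17 tested genes of the p53 pathway outside the family 0 rose and 0 fell, with a median log2 fold change of -0.06. At an unadjusted p under 0.05 there were 2 above 0 and 1 below 0. Eda2r, a receptor gene activated by p53, stood at 2.62 and 3.64 CPM in DAF-TM libraries, against 1.48, 1.02 and 1.23 CPM in Cg1-cre libraries (edgeR adjusted p = 0.507). Sesn1 had a log2 value of 0.36 ± 0.17 (SE, edgeR adjusted p = 0.833) and Ccng1, cyclin G1, of -0.33 ± 0.17 (edgeR adjusted p = 0.87).

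Of 16 transcription factors and chromatin regulators listed for their action on family genes 0 rose and 0 fell, with a median log2 fold change of 0.07. Among them 1 above 0 and 2 below 0 had an unadjusted p under 0.05. Bcl6, the germinal centre repressor that is known to lower Bcl2 transcription, stood at 214 and 239 CPM in DAF-TM libraries, against 287, 278 and 313 CPM in Cg1-cre libraries. The groups did not overlap (log2 fold change -0.37, SE 0.17, unadjusted p = 0.027, edgeR adjusted p = 0.795). Rel, the NF-kB subunit that drives A1 and Bcl2l1 in B cells, stood at 66.4 and 58.7 CPM in DAF-TM libraries, against 88.2, 89.0 and 67.4 CPM in Cg1-cre libraries. These groups did not overlap either (log2 fold change -0.39, SE 0.17, unadjusted p = 0.023, edgeR adjusted p = 0.775). Irf4 stood at 71.8 and 33.5 CPM in DAF-TM libraries, against 37.6, 38.8 and 37.0 CPM in Cg1-cre libraries, with DAF-TM library 1 above and library 2 below all controls (edgeR adjusted p = 0.565).

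The members differed in how far single libraries carried their values. The log2 fold change of Bcl2 ran from 0.65 to 0.74 when each library was left out in turn, and without DAF-TM library 1 it was 0.69. This range goes with a spread within groups below counting error, so it does not measure precision. The edgeR adjusted p of Bcl2 ran from 0.288 to 0.545 when each Cg1-cre library was left out in turn. Bcl2l1, Mcl1, Bcl2l11 and Pmaip1 were below 0 with all libraries and above 0 without DAF-TM library 2, at 0.19, 0.0084, 0.056 and 0.15. Without DAF-TM library 1 the same 4 genes stood at -0.34, -0.26, -0.31 and -0.41, and Bbc3, Bax, Bcl2a1b and Bcl2a1a at -0.40, -0.28, -0.39 and 0.84. Without Cg1-cre library 3 Bcl2l1 stood at 0.08 and Bbc3 at 0.040, and without Cg1-cre library 2 Pmaip1 stood at 0.07. Bax and the Bcl2a1 copies kept their sign in all 5 of these fits.

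**Figure D5:**
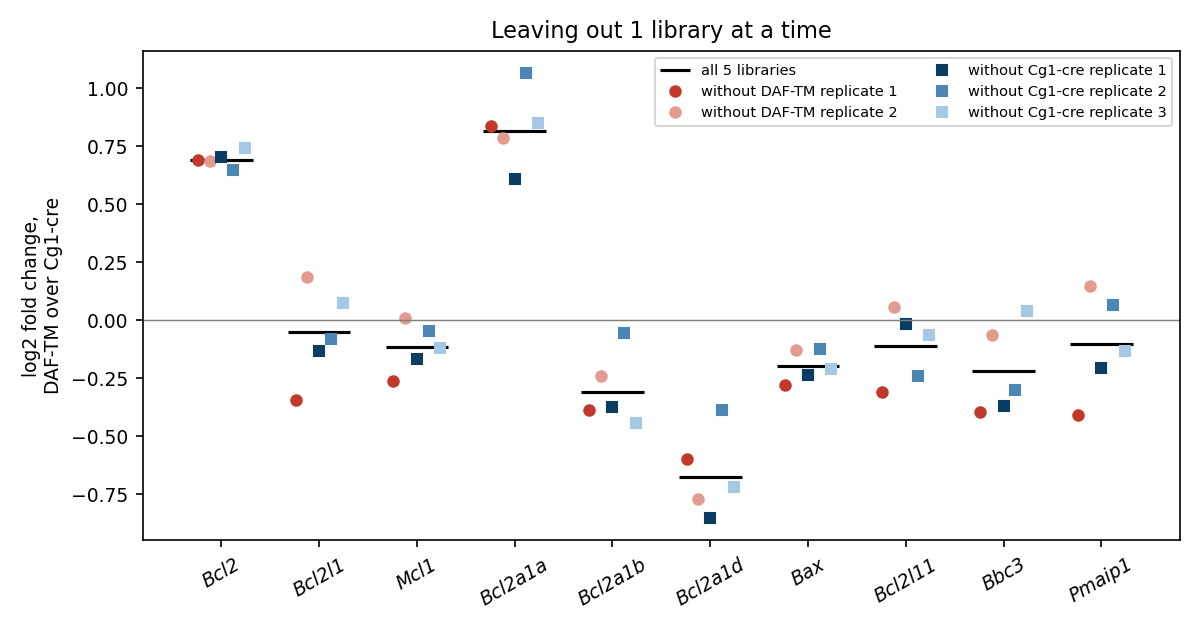
Log2 fold change of DAF-TM over Cg1-cre for the 10 genes with all 5 libraries (line) and without each library in turn (circles for a left-out DAF-TM library, squares for a left-out Cg1-cre library). The points of Bcl2 lie between 0.65 and 0.74, while those of Pmaip1 lie between -0.41 and 0.15.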

How the data were processed

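RNA of 10 ng per sample was made into oligo-dT primed SMART-Seq v4 libraries and read as single-end reads of 100 nt, per the labels. The deposited values are raw counts for each gene symbol, which the authors did not normalize, aligned to mm10 per the file header. bcl2fastq, HISAT2 and featureCounts are named without versions in the submitters' processing notes. The sources used here give neither the annotation nor the strand setting, nor how multi-mapping reads were treated. Columns were mapped to samples by name, and a pair with identical counts entered once, so 5 libraries replaced the planned 6. In 27 rows a spreadsheet had turned the symbol into a date, so 1 listed gene (March5) had no value.

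Counts were fitted with edgeR 4.0.16 (limma 3.58.1, R 4.3.3) using TMM factors, filterByExpr, robust glmQLFit and a two-sided glmQLFTest, adjusted over 18767 genes with a threshold of 0.05, and the procedure was checked on simulated counts. DESeq2 1.42.0 and limma-voom were alternatives. The SE and 95% interval of a log2 value come from the test's F value and degrees of freedom. The biological coefficient of variation was 0.177, with 3 residual degrees of freedom. Floors and intervals from counts would cover counting error only, as the libraries carry no molecular identifiers. Gene positions and upstream bases came from RefSeq (GRCm38.p6), and exon lengths and transcripts from GENCODE M21 (GRCm38). All 10 members matched both. All members are named, as are the further family genes and, from each other pathway list, the 3 of lowest p. Members and lists were chosen with earlier results of these data known. The labels name no litter or day that replicate numbers share. A few marker genes that the naming rule would include are not reported here. Marker calls without single libraries were added after the data were seen.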

Additional observations from a re-analysis of the deposited data

How the results depend on the processing

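None of the 10 genes was called with RLE or upper-quartile factors, without a filter, with at least 1 CPM in 2 libraries, without robust estimation, with DESeq2 or limma-voom, with a replicate block or without any 1 library. Bcl2 ran from 0.65 to 0.77 (log2) over the alternatives that kept all libraries, with adjusted p from 0.147 to 0.437. The count of genes called over all rows was 77 as reported, 39 with upper-quartile factors, 32 with DESeq2 and 49 with limma-voom, and ran from 14 without DAF-TM library 1 to 118 without DAF-TM library 2. Upper-quartile factors moved the median of all genes to 0.10 and Bcl2l1 to 0.0071. The replicate number as a block was fitted with the identical columns as number 2 and as number 3. Bcl2l1 then stood at 0.039 and Bbc3 at 0.017 with number 2, and Pmaip1 at 0.052 with number 3. The block called 61 and 105 genes, and the summed A1 copies stood at -0.46 and -0.09. Deviations of same-numbered libraries correlated at -0.128 (number 1), -0.254 (number 2) and, with the identical columns as number 3, 0.133. The 2 DAF-TM deviations mirror each other by centring and so cannot show a pairing, and the numbers were not taken as pairs. When 1 library was left out, Bcl2l1 ran from -0.34 to 0.19, Mcl1 from -0.26 to 0.0084, Bcl2l11 from -0.31 to 0.056, Bbc3 from -0.40 to 0.040, Pmaip1 from -0.41 to 0.15 and the summed A1 copies from -0.47 to -0.10. The cause of these turns was not tested. With 2 DAF-TM libraries, the 95% intervals of the log2 values set what changes are left possible.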

Other observations

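BAX and BAK act in a membrane that also holds the channels VDAC1 to VDAC3, and VDAC2 is known to bind BAK. The list held Vdac1, Vdac2, Vdac3, Bcap31, Tmbim6, Slc25a4, Slc25a5 and Ppif, whose products are not all in that membrane. All 8 listed genes had log2 fold changes below 0, with a median of -0.24. The median of all genes tested was 0.03, but those genes were not matched for level. Of the 13 germinal centre markers 12 were also below 0, with a median of -0.22. Of the 8 genes 0 passed at an edgeR adjusted p under 0.05 or had an unadjusted p under 0.05. The lowest p-values were those of Vdac1, at 71.6 ± 10.6 CPM in DAF-TM cells (SD, n = 2) and 88.9 ± 10.3 in Cg1-cre cells (SD, n = 3), of Slc25a5, an ADP and ATP carrier, at 802 ± 35.7 in DAF-TM cells and 974 ± 127 in Cg1-cre cells, and of Vdac2, at 241 ± 9.38 in DAF-TM cells and 284 ± 47.2 in Cg1-cre cells.

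Of 8 tested genes listed for the control of MCL1 stability 0 rose and 0 fell, with a median of 0.09. Usp9x, the deubiquitinase that is known to stabilise MCL1, stood at 143 and 132 CPM in DAF-TM libraries, against 189, 185 and 164 CPM in Cg1-cre libraries (log2 fold change -0.38, SE 0.17, unadjusted p = 0.0222, edgeR adjusted p = 0.77). The groups did not overlap. Btrc had a log2 value of 0.26 ± 0.19 (SE) and Cdc20 of -0.14 ± 0.17.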
